A study of Mus musculus with 9 samples.

Results

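Thrombospondins, tenascin and the other glycoproteins of scar matrix were followed here through 10 genes in fibrotic mouse liver: Thbs1, Thbs2, Tnc, Vcan, Fbn1, Fn1, Hapln1, Cthrc1, Postn and Sparc. They are 10 of the 24532 genes in the deposited gene table, taken by their symbols, and all 10 passed the filter on low counts that left 14731 genes. The genes were proposed with their scaled read counts in the 3 groups of livers described next already known. Their levels and changes between groups are therefore given as a description, with no test.

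The livers came from wild-type C57BL/6 mice, and each of the 9 samples was sequenced as a paired-end, strand-marked mRNA library. Every mouse had received thioacetamide (TAA), a toxin that hepatocytes activate and that produces fibrosis, by intraperitoneal injection at rising doses over 10 weeks. The 3 groups of 3 libraries are mice given saline (the TAA group, replicates 12, 13 and 14), mice given rhCYGB over the last 2 weeks of TAA (replicates 17, 18 and 19), and mice given it over the last 5 weeks (replicates 23, 27 and 28). rhCYGB is human cytoglobin made as a recombinant protein. This haem protein related to myoglobin was given into the tail vein at 2 mg/kg with 2 injections per week, and livers were taken 2 days after the last of them. TAA continued during the rhCYGB weeks, and livers without TAA are not among these samples, so no level below can be set against a healthy liver. The labels number the samples without stating that each is a separate mouse, so the errors given here measure the spread between these samples.

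In injured liver, stellate cells and portal fibroblasts become myofibroblasts that lay down a provisional and then a collagen-rich matrix. Collagen gives this scar its bulk, while glycoproteins such as fibronectin, fibrillin, tenascin and periostin organise its fibres, hold latent transforming growth factor beta (TGF beta) and signal to cells through integrins. Versican and its link protein bind hyaluronan into a hydrated gel, and thrombospondins and SPARC are matricellular proteins, which sit in the matrix but act mainly on cells. Hepatocytes are also a main source of the soluble fibronectin of plasma, so fibronectin transcripts in whole liver have more than one cellular origin.

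The smallest library held 55655727 estimated reads and the largest 87289945, 1.57 times as many, and no 2 of the 36 pairs of libraries were identical. Levels are given as CPM, read counts relative to library size after scaling by the trimmed mean of M-values (TMM). On the first principal component of log2 levels, which held 41.9% of the variance, replicates 17 and 18 stood at -31.4 and -34.3 and replicate 23 at 51.1, against -10.3 to 18.04 for the other 6. Acta2, the smooth muscle actin of myofibroblasts, was at 52.8 ± 21.3 CPM in TAA and fell with rhCYGB, to 11.9 ± 5.45 CPM at 2 weeks and to 6.95 ± 2.71 at 5 weeks (SD, n = 3, edgeR's quasi-likelihood test, Benjamini-Hochberg adjusted p = 0.0327 and 0.0361). The mouse's own Cygb was 24.8 ± 4.94, 16.95 ± 3.77 and 17.4 ± 7.33 CPM, with overlapping groups (edgeR adjusted p = 0.317 and 0.415); the injected protein is not RNA and is not measured.

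The plot of the 10 genes by library shows that 9 of them were lower in both rhCYGB groups than in TAA on average, and that Fn1 was the exception. Across the 10 genes the median log2 change against TAA was -1.61 after 2 weeks and -1.49 after 5 weeks of rhCYGB, where the median of all tested genes was -0.03 and 0.01. After 2 weeks 9 of 10 genes had all rhCYGB libraries below all TAA libraries, the exception being Sparc, where 16.3% of all tested genes did so. After 5 weeks it was 8 of 10, without Sparc and Fn1, against 13.4%. These genes were chosen on these contrasts, and both contrasts share the TAA libraries. In this whole tissue, fewer cells that express a gene and less RNA per cell cannot be told apart.

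**Figure D1:**
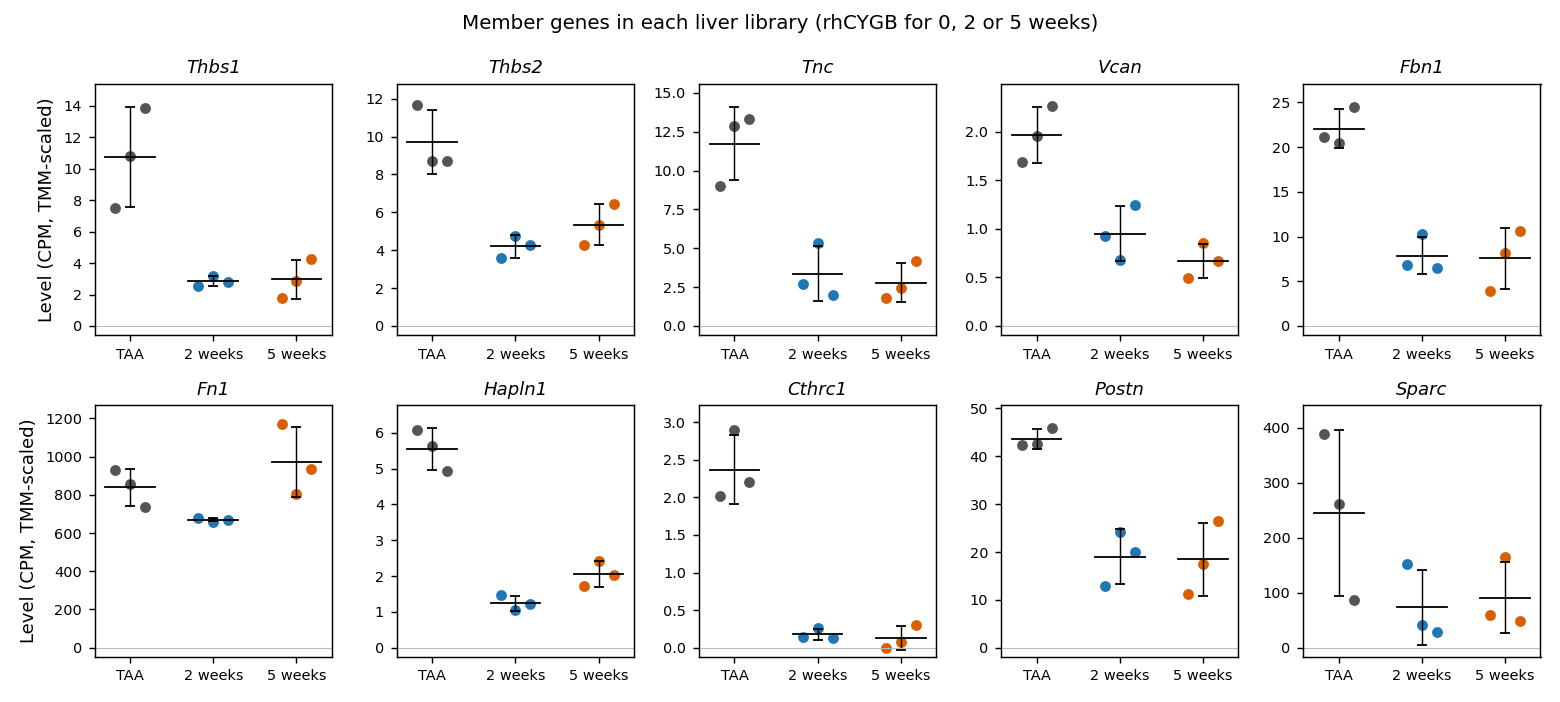
Level of each gene (y axis, TMM-scaled CPM, a separate linear scale per gene) in each of the 9 libraries, by group on the x axis (TAA, rhCYGB for 2 weeks, rhCYGB for 5 weeks). Points are libraries in order of replicate number, bars are means and whiskers 1 SD (n = 3). In 8 panels both rhCYGB groups lie below the TAA group, while Sparc overlaps and Fn1 at 5 weeks does too.

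Thbs1 and Thbs2 encode the trimeric thrombospondins, which inhibit angiogenesis through CD36; thrombospondin 1 also activates latent TGF beta. Thbs1 (gene ID 21825, mm10 chr2:118111876-118127133) stood at 7.49, 10.8 and 13.9 CPM in TAA, at 2.56, 3.18 and 2.81 CPM after 2 weeks of rhCYGB, and at 1.81, 2.86 and 4.25 CPM after 5 weeks. All 6 rhCYGB libraries lay below the lowest TAA library. Its log2 change was -1.91 ± 0.32 (SE) after 2 weeks, 3.76-fold lower, and -1.85 ± 0.32 after 5 weeks, 3.61-fold lower. The second of its annotated transcripts held 26, 13 and 254 estimated reads in the TAA libraries and was listed at 0 in all 6 rhCYGB libraries. The 2 transcripts are of 5848 and 5845 bases, and Thbs1 held 117 to 279 estimated reads in the rhCYGB libraries. Their split is an estimate in which a transcript can be set to 0, and it was not tested.

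Thbs2 (gene ID 21826, chr17:14665500-14694262) was at 11.7, 8.73 and 8.72 CPM in TAA, 3.57, 4.76 and 4.27 CPM after 2 weeks and 4.26, 5.33 and 6.43 CPM after 5 weeks of rhCYGB. The TAA libraries were again the 3 highest of the 9. The difference was smaller than for Thbs1 at both times, with log2 changes of -1.20 ± 0.21 and -0.86 ± 0.20, that is 2.31-fold and 1.82-fold lower.

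Tnc encodes tenascin C, a hexameric protein that appears in wounds and fibrotic tissue and is a ligand of TLR4. Tnc (gene ID 21923, chr4:63959785-64047015) was at 9.02, 12.8 and 13.3 CPM in TAA, 2.73, 5.35 and 1.99 CPM after 2 weeks and 1.77, 2.43 and 4.17 CPM after 5 weeks. The groups did not overlap with TAA, but the rhCYGB libraries differed among themselves, with replicate 18 highest at 2 weeks and replicate 28 at 5 weeks. The log2 changes were -1.80 ± 0.40 and -2.07 ± 0.41, or 3.48-fold and 4.19-fold lower. Without replicates 17, 18 and 23, the libraries that stood apart, they were -2.56 and -1.82.

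Postn encodes periostin, which binds tenascin C and collagen and promotes collagen cross-linking. Postn (gene ID 50706, chr3:54361107-54391041) was at 42.3, 42.5 and 46.0 CPM in TAA, 12.9, 24.3 and 19.97 CPM after 2 weeks and 11.3, 17.6 and 26.4 CPM after 5 weeks. The TAA libraries lay close together, while the rhCYGB libraries spread over a wider range in which none reached TAA. Its log2 changes of -1.19 ± 0.30 and -1.24 ± 0.30 were nearly the same at both times, 2.29-fold and 2.36-fold lower.

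The 250 bases before the start of Tnc, Thbs2 and Postn are shown because these 3 of the 7 genes with a matching RefSeq promoter held a TATAAA run and had TAA levels above all rhCYGB levels. They are RefSeq sequences on GRCm38.p6 (the build also called mm10), 5′ to 3′ on the gene's strand. Capitals mark matches on either strand to TATAAA, to CAGAC (a short element bound by SMAD factors, which act downstream of TGF beta) and to GGGCGG (SP1). Tnc spans chr4:64047016-64047265 on the minus strand, Thbs2 chr17:14694263-14694512 on the minus strand and Postn chr3:54360857-54361106 on the plus strand.
Tnc: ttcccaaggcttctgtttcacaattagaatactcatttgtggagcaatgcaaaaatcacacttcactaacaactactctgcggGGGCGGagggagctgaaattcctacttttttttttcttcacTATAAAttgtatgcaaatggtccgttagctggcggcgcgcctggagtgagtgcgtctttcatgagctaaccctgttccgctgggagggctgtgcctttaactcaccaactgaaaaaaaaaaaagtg
Thbs2: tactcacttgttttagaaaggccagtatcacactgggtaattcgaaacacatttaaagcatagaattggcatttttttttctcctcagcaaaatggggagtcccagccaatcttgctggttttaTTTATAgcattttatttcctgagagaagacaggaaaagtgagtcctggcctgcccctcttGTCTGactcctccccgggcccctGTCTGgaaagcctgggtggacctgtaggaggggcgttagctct
Postn: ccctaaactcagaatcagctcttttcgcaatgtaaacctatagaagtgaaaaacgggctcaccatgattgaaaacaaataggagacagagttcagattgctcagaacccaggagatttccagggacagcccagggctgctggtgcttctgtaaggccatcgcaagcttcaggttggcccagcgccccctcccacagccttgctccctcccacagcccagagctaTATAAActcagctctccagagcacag
The TATAAA run of Postn begins 26 bases before the start, and those of Tnc and Thbs2 lie 126 bases before it, the latter on the opposite strand as TTTATA. In windows of 250 bases before to 50 after the start, TATAAA was found in 3 of the 7 member promoters (13.6% of 32851 RefSeq promoters), CAGAC in 4 (Tnc, Sparc, Hapln1 and Thbs2; 49.6% of all) and GGGCGG in 3 (Fbn1, Tnc and Vcan; 35.7%). The Tnc match to CAGAC lies 10 bases after the start and is not printed. TGANTCA (AP-1), CATTCC (TEAD) and the CArG box of serum response factor were in 0 of the 7, and in 7.81%, 14.7% and 1.63% of all promoters. The CArG box was searched by its usual consensus, and TATAAA can lie within it; the other motifs searched share no full match. These matches describe letters in the windows and no binding was measured.

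Vcan encodes versican, a large chondroitin sulphate proteoglycan, and Hapln1 the link protein that fastens such proteoglycans to hyaluronan. The genes are neighbours, Hapln1 (gene ID 12950) at chr13:89540636-89611832 and Vcan (gene ID 13003) at chr13:89655310-89742512. Hapln1 was at 6.08, 5.64 and 4.93 CPM in TAA, 1.47, 1.05 and 1.22 CPM after 2 weeks and 1.71, 2.43 and 2.02 CPM after 5 weeks. All 3 groups were separate, with the 2-week libraries lowest. Its log2 change was -2.16 ± 0.21 after 2 weeks (4.46-fold lower) and -1.43 ± 0.21 after 5 weeks (2.70-fold lower), and 5 weeks stood 0.72 ± 0.21 above 2 weeks.

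Vcan was at 1.69, 1.95 and 2.27 CPM in TAA, 0.930, 0.684 and 1.24 CPM after 2 weeks and 0.494, 0.850 and 0.670 CPM after 5 weeks. TAA was highest in every case, and unlike for Hapln1 the mean was lowest at 5 weeks, where the rhCYGB groups overlapped. The log2 changes were -1.05 ± 0.31 and -1.56 ± 0.31, or 2.08-fold and 2.94-fold lower. Of the 5 annotated versican transcripts only the longest, of 12432 bases, was assigned estimated reads: 104, 133 and 165 in TAA, 45, 54 and 68 after 2 weeks, and 32, 44 and 44 after 5 weeks. The other 4 were listed at 0 in all 9 libraries, in estimates that can set a transcript to 0.

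Fbn1 encodes fibrillin 1, the backbone of microfibrils, which store latent TGF beta. Fbn1 (gene ID 14118, chr2:125300594-125506438) was at 21.1, 20.5 and 24.5 CPM in TAA, 6.84, 10.3 and 6.50 CPM after 2 weeks and 3.92, 8.17 and 10.7 CPM after 5 weeks. No rhCYGB library reached the TAA range, and replicate 23 was the lowest of all. The log2 changes were -1.48 ± 0.32 and -1.54 ± 0.32, or 2.80-fold and 2.91-fold lower.

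Cthrc1 encodes a secreted protein of activated fibroblasts that was found in injured arteries and acts on Wnt signalling. Cthrc1 (gene ID 68588, chr15:39076932-39087119) had the largest change of the 10 genes at both times. It was at 2.02, 2.89 and 2.20 CPM in TAA, 0.145, 0.266 and 0.128 CPM after 2 weeks and 0, 0.0773 and 0.305 CPM after 5 weeks. These levels rest on 124, 197 and 160 estimated reads in TAA against 7, 21 and 7, and then 0, 4 and 20. The 0 of replicate 23 allows up to 0.0463 CPM (3 reads, counting error only). The log2 changes were -3.67 ± 0.76 (12.7-fold lower) and -4.17 ± 0.79 (18.04-fold lower), and leaving out 1 library at a time moved the 5-week value between -6.00 and -3.59.

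Sparc encodes SPARC (osteonectin), a collagen-binding matricellular protein. Sparc (gene ID 20692, chr11:55394159-55420080) was the most variable of the 10 genes within groups, with a log2 SD of 1.12 where the others had 0.185 to 0.64. It was at 388, 261 and 87.7 CPM in TAA, 153, 40.6 and 28.6 CPM after 2 weeks and 59.6, 165 and 49.1 CPM after 5 weeks. The lowest TAA library, replicate 14, lay below replicates 17 and 27 of the rhCYGB groups. The log2 changes of -1.73 ± 0.74 and -1.43 ± 0.73 depended on single libraries: without replicate 17 the 2-week value was -2.83, and without replicate 12 the values were -1.25 and -0.93. Without replicate 27 the 5-week value was -2.17. Without replicates 17, 18 and 23 together the 2-week value was -3.10.

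Fn1 encodes fibronectin, and it did not share the pattern of the other 9. Fn1 (gene ID 14268, chr1:71585473-71653234) was at 927, 857 and 734 CPM in TAA, 676, 659.9 and 669 CPM after 2 weeks and 1170.2, 806 and 936 CPM after 5 weeks. The 2-week libraries lay close together below TAA, and the 5-week libraries overlapped TAA and lay above the 2-week group. The log2 change was -0.33 ± 0.15 after 2 weeks and 0.21 ± 0.15 after 5 weeks, and 5 weeks stood 0.54 ± 0.15 above 2 weeks. The 5-week value was 0.04 without replicate 23, -0.0048 with scaling by library totals and -0.02 on log2(FPKM + 1), so its sign depended on the scaling.

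Fn1 is transcribed as several splice forms, in which the extra domain exons EDA and EDB are characteristic of fibronectin made by tissue cells and absent from the plasma form made by hepatocytes. These 2 exons are shown because the transcripts with EDB were highest in the TAA libraries, which the gene total does not show. Their sequences are those of GENCODE M21 on GRCm38, both on the minus strand, EDB at chr1:71613763-71614035 (273 bases) and EDA at chr1:71603660-71603929 (270 bases). The grouping of transcripts by these exons was chosen after the transcript values were seen, so it carries no test.
EDB: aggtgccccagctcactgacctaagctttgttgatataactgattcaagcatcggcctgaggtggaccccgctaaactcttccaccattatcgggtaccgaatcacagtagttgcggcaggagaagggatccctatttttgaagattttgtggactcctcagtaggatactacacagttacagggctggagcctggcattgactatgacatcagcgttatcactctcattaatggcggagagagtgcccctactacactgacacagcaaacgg
EDA: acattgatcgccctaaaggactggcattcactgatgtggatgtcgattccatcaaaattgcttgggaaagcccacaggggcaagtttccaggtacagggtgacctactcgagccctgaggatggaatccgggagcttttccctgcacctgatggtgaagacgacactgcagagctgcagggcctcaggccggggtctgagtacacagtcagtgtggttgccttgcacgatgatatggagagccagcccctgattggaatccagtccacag
Of 7 deposited Fn1 transcripts 1 held EDB. Its share of Fn1 reads was 1.57%, 1.78% and 1.86% in TAA, 0%, 0.0346% and 0% after 2 weeks, and 0.00527%, 1.54% and 0.00813% after 5 weeks. All TAA libraries were higher than all rhCYGB libraries, but replicate 27 came close to them while the other 5 rhCYGB libraries were at or near 0. The estimated reads behind these shares were 893, 1038 and 994 in TAA, 0, 18 and 0 after 2 weeks, and 4, 643 and 5 after 5 weeks, of 32727 to 75848 Fn1 reads per library. A share of 0 in replicates 17 and 19 allows up to 0.00917% and 0.00818%, and the 95% Wilson intervals reached at most 0.123 points from any share (counting error only). Transcripts with EDA, 4 of the 7, held 10.7%, 14.8% and 10.0% in TAA, 8.51%, 0.0346% and 6.82% after 2 weeks, and 8.42%, 7.17% and 11.3% after 5 weeks, with Wilson intervals of at most 0.307 points to either side. The EDA shares of the 5-week group overlapped TAA, and replicate 18 stood alone near 0. These are assembler estimates over long shared sequence, in which a transcript can be set to 0 in a library, and no junction reads were counted here.

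**Figure D2:**
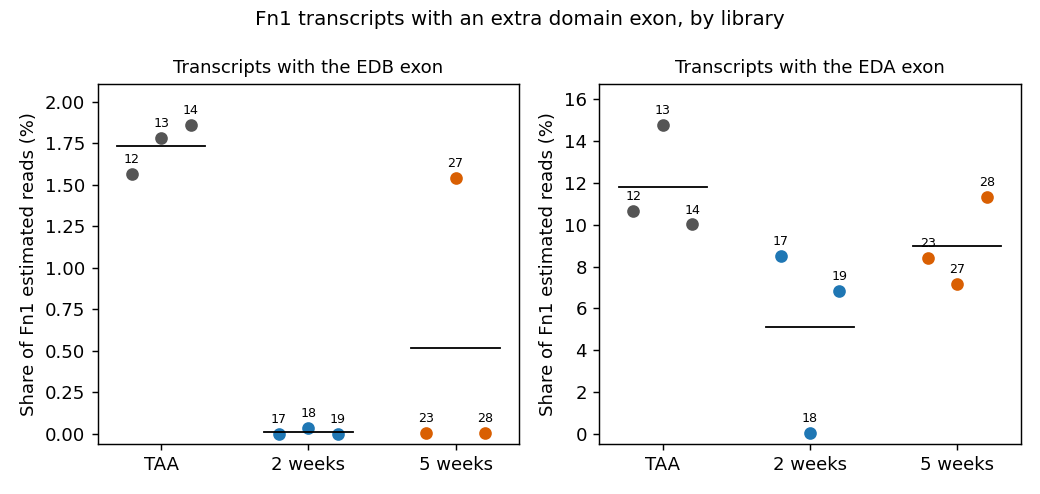
Share of Fn1 estimated reads (y axis, percent) assigned to transcripts with the EDB exon (left) and with the EDA exon (right), by group on the x axis; points are libraries with their replicate numbers and bars are group means (n = 3). EDB lies between 1.57% and 1.86% in TAA and near 0 in every rhCYGB library but replicate 27 (1.54%).

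Shares of transcripts within a gene do not use the gene totals that were known when the members were proposed. For the 8 transcripts of Fn1, Postn and Sparc that had a mean share of 5% or more and were not the remainder of a pair, the 6 rhCYGB libraries were compared with the 3 TAA libraries by a two-sided exact permutation test over 84 splits, whose smallest possible p is 0.0119. None passed after adjustment over the 8, with adjusted p from 0.595 to 0.929. A single share at the smallest p would have an adjusted p of 0.0952, so the design could not call 1 transcript on its own. The lowest p belonged to Fn1 variant 7, at 30.7% ± 0.545 in TAA and 34.1% ± 2.72 in rhCYGB (SD, n = 3 and n = 6, exact permutation p = 0.0833). All 6 rhCYGB libraries lay above the 3 TAA libraries, which reached 31.2% where the lowest rhCYGB library was at 31.4%. The test compares means, so such a separation does not by itself give the smallest p. The main periostin transcript, variant 3, made up 77.1% ± 2.93 of Postn in TAA, 57.2% ± 27.9 after 2 weeks and 68.9% ± 10.7 after 5 weeks, with replicate 17 at 25.2% (exact permutation p = 0.274 over both rhCYGB groups). The difference in variant 3 was thus within the spread of the rhCYGB libraries. Postn variant 1 was at 6.94% ± 2.28 in TAA, 21.5% ± 10.8 after 2 weeks and 8.70% ± 8.23 after 5 weeks. Its 2-week libraries, from 9.69% up, all lay above the TAA libraries, which reached 8.32%. The 5-week libraries overlapped TAA (exact permutation p = 0.262 over both rhCYGB groups).

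Per length, the order of the 10 genes can be compared by FPKM (fragments per kilobase of transcript, relative to library size). In TAA, Fn1 (121 ± 14.1 FPKM) and Sparc (104 ± 62.4) were highest and overlapped, and Postn followed at 15.6 ± 0.791, apart from both neighbours. Fbn1 (2.49), Cthrc1 (2.28), Thbs1 (2.06), Tnc (1.86) and Thbs2 (1.83) formed a run in which each overlapped the next. Hapln1 (1.23) and Vcan (0.177) were lowest and each stood apart from the gene before it. In the rhCYGB groups Fn1, Sparc and Postn kept ranks 1 to 3 and Vcan rank 10. Cthrc1 moved from rank 5 to rank 9 in both groups, at 0.124 FPKM after 2 weeks and 0.105 after 5 weeks, where it overlapped Vcan (0.0682 and 0.0513).

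The levels of 8 of the genes followed each other closely over the 9 libraries, those of Sparc less so and those of Fn1 not. The correlation of log2 CPM of each gene with the mean of the other 9 was 0.95 for Cthrc1, 0.95 for Thbs2, 0.94 for Thbs1 and Hapln1, 0.93 for Fbn1, 0.90 for Tnc, 0.89 for Postn and 0.78 for Vcan. It was 0.58 for Sparc and 0.01 for Fn1. Among the 36 pairs without Fn1 the median was 0.849 (0.365 to 0.969), and among the 9 pairs with Fn1 it was -0.0664 (-0.281 to 0.323). These are descriptions over 9 libraries that share the group difference used to pick the genes.

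The 8 other genes with the most similar profile to the mean of the members were Plod2, Gucy1a3, Iqgap1, Sfpq, Itpripl2, Loxl2, Zfand2a and Dcbld2, with Pearson's r of 0.991 down to 0.967 over the 9 libraries and Spearman's rho of 0.85 to 0.967. Plod2, a lysyl hydroxylase that prepares collagen for cross-links, was at 3.82 ± 0.220 CPM in TAA, 1.77 ± 0.258 after 2 weeks and 1.96 ± 0.375 after 5 weeks. Loxl2, a lysyl oxidase that cross-links collagen, was at 25.3 ± 0.881, 8.68 ± 2.41 and 10.6 ± 2.88 CPM. As these genes were chosen for their likeness, no test is given.

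By edgeR's quasi-likelihood test over all genes, 488 genes passed an adjusted p of 0.05 after 2 weeks (3.31% of those tested), 197 lower (1.34%) and 291 higher (1.98%), and 190 after 5 weeks (1.29%), 89 lower (0.604%) and 101 higher (0.686%). Among the 10 genes, whose own counts carry no weight here because the contrasts were known when they were proposed, 6 were called lower after 2 weeks (Thbs1, Thbs2, Tnc, Fbn1, Hapln1 and Cthrc1), 5 after 5 weeks (Thbs1, Tnc, Vcan, Hapln1 and Cthrc1), and 0 higher at either time. The share of higher genes among all calls was 59.6% after 2 weeks and 53.2% after 5 weeks, but 6.39% and 7.54% with scaling by library totals, 7.27% and 6.55% on log2(FPKM + 1), and 45.1% and 41.6% with upper-quartile scaling. Library totals moved the median of all genes to -0.36 and -0.21, and FPKM to -0.20 and -0.13. The 9 genes other than Fn1 were lower than TAA under each of these scalings at both times. The number of members called when 1 library was left out ranged from 0 (without replicate 13 or 18) to 7 (without replicate 23) after 2 weeks. After 5 weeks it was 2 without replicate 27 and 0 without any of the others, and it was 0 in a fit of the 6 libraries compared. Without replicates 17, 18 and 23 together it was 0 at both times, while the 9 genes other than Fn1 had log2 changes of -0.67 (Vcan) to -4.19 (Cthrc1) after 2 weeks and -0.72 (Thbs2) to -3.57 (Cthrc1) after 5 weeks.

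Transcript length moved with the 2-week comparison and with that of 5 against 2 weeks. Across the 14731 tested genes, which are not independent replicates, the rank correlation of log2 change with transcript length was -0.419 after 2 weeks and 0.0514 after 5 weeks. Between 5 and 2 weeks it was 0.469, so longer genes tended to be higher at 5 weeks. Of the 10 members 8 were longer than the median of 2747 bases, up to Vcan's 12432, and Sparc (2641 bases) and Cthrc1 (1164) were shorter. With each library's trend over length removed, the member median was -1.39 after 2 weeks and -1.50 after 5 weeks. Fn1 at 2 weeks went from -0.33 to -0.07 ± 0.09. The other 9 genes remained lower in that setting, from -0.81 (Vcan) to -3.96 (Cthrc1) after 2 weeks and from -0.88 (Thbs2) to -4.18 (Cthrc1) after 5 weeks. In that setting the difference of Hapln1 between 5 and 2 weeks went from 0.72 to 0.52 ± 0.25. That of Fn1 went from 0.54 to 0.21 ± 0.09.

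**Figure D3:**
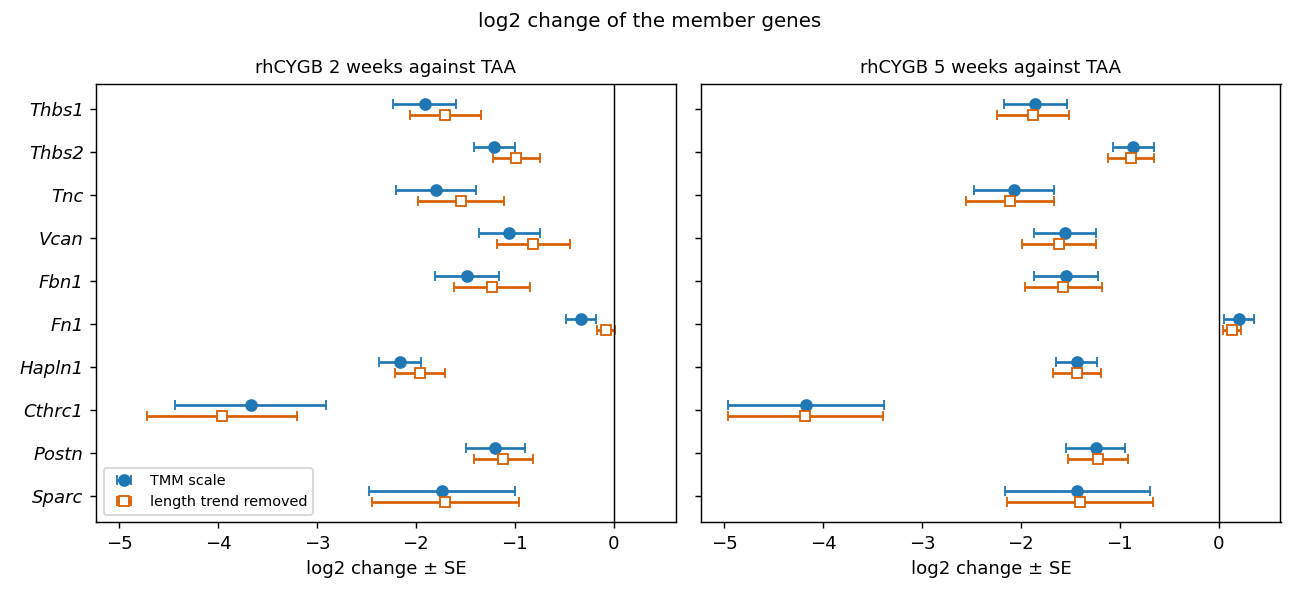
log2 change against TAA with its SE (x axis) for each gene (y axis) after 2 weeks (left) and 5 weeks (right) of rhCYGB, on the TMM scale (filled circles) and with the length trend removed (open squares). Cthrc1 lies furthest left at both times and Fn1 lies near 0.

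**Figure D4:**
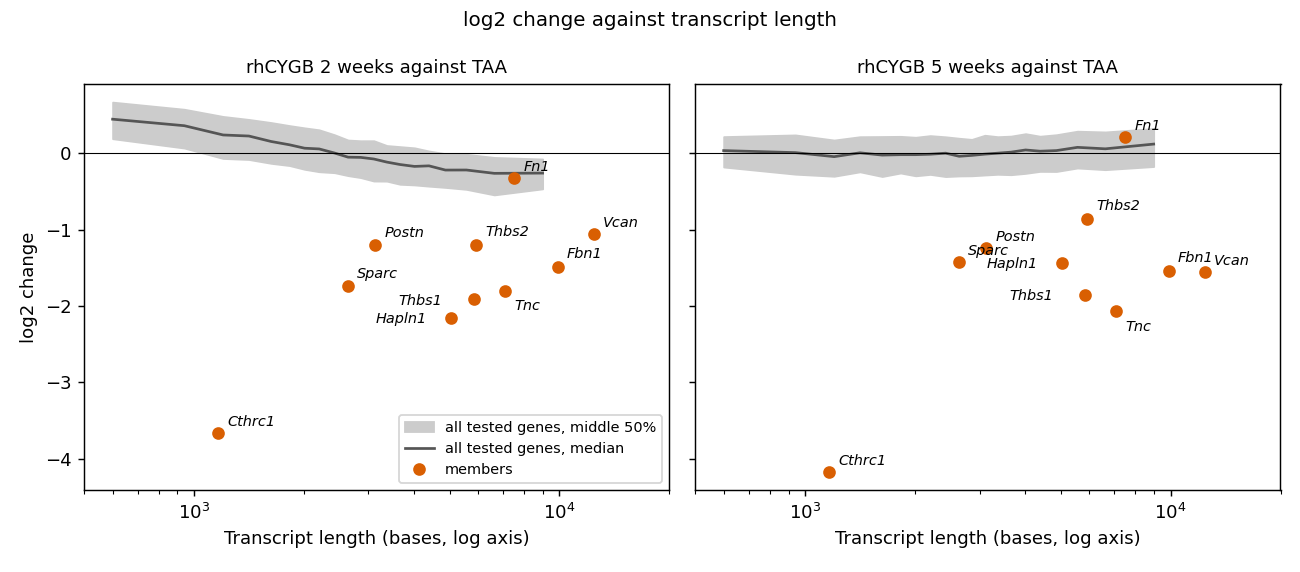
log2 change against TAA (y axis) by transcript length in bases (x axis, log scale) after 2 weeks (left) and 5 weeks (right). The line is the median and the band the middle 50% of tested genes in bins of length, and circles are the 10 genes. The band slopes down at 2 weeks and is nearly level at 5 weeks, and only Fn1 lies inside it.

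Between 5 and 2 weeks of rhCYGB, the member median was 0.01. It was 0.29 without replicate 23, -0.33 without replicate 28 and 0.50 without replicates 17, 18 and 23 together. With the length trend removed it was -0.14, so this median depended on the libraries kept and on the setting. By edgeR's quasi-likelihood test 0 of the 10 genes passed, where 3 of all genes did (0.0204%), 1 lower (0.00679%) and 2 higher (0.0136%). An unadjusted p under 0.05 was found for 2 members and for 3421 of all 14731 genes. DESeq2 called 2 members (Fn1 and Hapln1) and 788 of all genes, and limma on FPKM called 0 and 4. Fn1 and Hapln1 were also the 2 genes whose 5-week libraries all lay above the 2-week libraries, where 10.9% of all tested genes did so, and none of the 10 had all 5-week libraries below, where 10.2% of all genes did. With the length trend removed, the differences of Fn1 and Hapln1 were 0.21 and 0.52. Without replicate 27 edgeR called Fn1 and 1889 genes in all.

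Few other matrix glycoproteins passed the test. Of 57 tested genes that are not among the 10, edgeR called 0 higher and 2 lower after 2 weeks (median log2 change -0.48, against -0.03 for all genes), and 0 higher and 1 lower after 5 weeks (median -0.55, against 0.01). Of all genes 1.34% and 0.604% were called lower. At an unadjusted p under 0.05 there were 18 and 25 of the 57, DESeq2 called 11 and 10, and limma on FPKM 11 and 8. Over all 14731 genes the same counts were 3453 and 2829, 1713 and 1188, and 2271 and 1190. The basement membrane genes Nid1 (nidogen 1) and Lamc1 (a laminin chain) fell after 2 weeks, Nid1 from 90.1 ± 9.90 to 53.5 ± 3.05 CPM (log2 change -0.75 ± 0.15, edgeR adjusted p = 0.0327) and Lamc1 from 38.1 ± 2.73 to 26.2 ± 0.670 CPM (-0.54 ± 0.12, edgeR adjusted p = 0.0427). Fbn2, the fibrillin related to Fbn1, fell after 5 weeks from 3.86 ± 0.427 to 1.05 ± 0.493 CPM (-1.87 ± 0.32, edgeR adjusted p = 0.0394). Each of these genes was also lower at the other time, where none was called. Nid1 and Lamc1 were at -0.39 ± 0.15 and -0.30 ± 0.12 after 5 weeks (edgeR adjusted p = 0.187 and 0.216). Fbn2 was at -1.17 ± 0.31 after 2 weeks (edgeR adjusted p = 0.0680). The log2 change was below 0 for 44 of the 57 after 2 weeks and for 50 after 5 weeks.

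Of 19 genes of the hyaluronan matrix and of proteases that cleave versican, edgeR called 0 higher and 2 lower at each time (medians -0.26 and -0.27), where it called 1.34% and 0.604% of all genes lower. At an unadjusted p under 0.05 there were 7 and 8 of the 19, DESeq2 called 6 and 3, and limma on FPKM 7 and 3. Over all 14731 genes the same counts were 3453 and 2829, 1713 and 1188, and 2271 and 1190. After 2 weeks the versican-cleaving protease Adamts1 fell from 9.48 ± 1.79 to 4.17 ± 0.810 CPM (log2 change -1.19 ± 0.24, edgeR adjusted p = 0.0367), and so did the hyaluronan receptor Hmmr, which is also a gene of dividing cells (-0.85 ± 0.18, edgeR adjusted p = 0.0386). After 5 weeks Adamts4, another protease of versican, fell from 2.76 ± 0.758 to 0.539 ± 0.219 CPM (-2.35 ± 0.36, edgeR adjusted p = 0.0361) and Hapln4, a relative of Hapln1, by 0.80 ± 0.15 on the log2 scale (edgeR adjusted p = 0.0467). Adamts4 was also lower after 2 weeks (-1.47 ± 0.35, edgeR adjusted p = 0.0513), while Hapln4 was not (0.08 ± 0.15, edgeR adjusted p = 0.778). Adamts1 and Hmmr were also lower after 5 weeks (-0.74 ± 0.24 and -0.52 ± 0.18, edgeR adjusted p = 0.141 and 0.154). The protease called differed between the times, but a difference between 5 and 2 weeks passed the test for neither.

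Among 25 cell surface receptors of these proteins (integrins, syndecans, CD36, CD47 and others), edgeR called 0 at either time, where it called 3.31% and 1.29% of all genes. At an unadjusted p under 0.05 there were 5 of the 25 each time, DESeq2 called 1 each time, and limma on FPKM 4 and 3. Over all 14731 genes the same counts were 3453 and 2829, 1713 and 1188, and 2271 and 1190. The medians were -0.27 and -0.32. The lowest p belonged to the syndecan Sdc4 after 2 weeks (log2 change 0.71 ± 0.23, edgeR adjusted p = 0.105) and to the fibronectin receptor chain Itga5 after 5 weeks (-0.78 ± 0.16, edgeR adjusted p = 0.0516).

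Of 32 genes of the TGF beta pathway edgeR called 1 higher and 1 lower after 2 weeks (median -0.29), and 1 higher and 0 lower after 5 weeks (median -0.28). Of all genes 1.98% were called higher and 1.34% lower after 2 weeks, and 0.686% and 0.604% after 5 weeks. Inhba, an activin subunit, fell after 2 weeks (-1.72 ± 0.35, edgeR adjusted p = 0.0375). After 5 weeks its change was -0.73 ± 0.34, with libraries overlapping TAA (edgeR adjusted p = 0.285). Klf10, a TGF beta inducible repressor, rose from 11.9 ± 2.53 to 20.5 ± 0.392 and 22.9 ± 3.21 CPM (0.78 ± 0.17 and 0.94 ± 0.17, edgeR adjusted p = 0.0400 and 0.0427). At an unadjusted p under 0.05 there were 9 and 13 of the 32, DESeq2 called 3 and 7, and limma on FPKM 11 and 6. Over all 14731 genes the same counts were 3453 and 2829, 1713 and 1188, and 2271 and 1190. Over these 4 lists of 126 genes, 6 genes were called after 2 weeks and 4 after 5 weeks, and leaving out 1 library gave 0 to 15 and 0 to 2.

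Between 5 and 2 weeks edgeR called 0 genes of any of the 4 lists. At an unadjusted p under 0.05 there were 7 of the 57 matrix glycoproteins, 5 of the 19 hyaluronan matrix genes, 4 of the 25 receptors and 6 of the 32 TGF beta genes. DESeq2 called 0, 3, 0 and 0. Of all 14731 genes 3421 had such an unadjusted p, and DESeq2 called 788.

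Markers of several cell types differed between the groups beside the 10 genes. The summed level of 9 activated stellate cell and myofibroblast markers was 1097 to 1708 CPM in TAA libraries, 314 to 704 CPM at 2 weeks and 186 to 515 CPM at 5 weeks of rhCYGB. All 9 had a log2 change below 0 at both times, 2 were called lower each time, and none was at 0. Of all tested genes 1.34% were called lower and 1.98% higher at 2 weeks, and 0.604% and 0.686% at 5 weeks. Markers of portal fibroblasts (6 genes) summed to 49.2 to 69.4, 31.2 to 55.9 and 17.1 to 41.4 CPM, and 6 smooth muscle markers to 71.2 to 94.6, 48.0 to 64.2 and 49.4 to 68.6 CPM, with Actg2 at 0 in some rhCYGB library. The portal fibroblast sums at 2 weeks overlapped TAA, and edgeR called none of these portal or smooth muscle markers at either time. Summed quiescent stellate cell markers overlapped between groups (250 to 314, 227 to 304 and 157 to 283 CPM, 7 genes). Of these 7, 5 had a log2 change below 0 at 2 weeks and 6 at 5 weeks (medians -0.42 and -0.41), and none was called. The sums of 6 platelet and megakaryocyte markers overlapped too (7.14 to 9.37, 7.12 to 9.64 and 5.72 to 7.50 CPM), platelets being a store of thrombospondin 1. Sums of 5 T cell markers were 2.00 to 3.41 CPM in TAA, 5.69 to 9.46 at 2 weeks, above all TAA libraries with 1 marker called higher, and 2.35 to 7.79 at 5 weeks, with Cd3e at 0 in some 5-week library. Macrophage markers (6 genes) summed to 264 to 284, 246 to 309 and 195 to 250.7 CPM, with all 5-week libraries below TAA. At 2 weeks 1 macrophage marker was called higher and 1 lower, and at 5 weeks 0 were called. The 4 erythroid markers summed to 174 to 247, 271 to 327 and 160 to 195 CPM, with all 2-week libraries above TAA and Hbb-bt at 0 in some library of each group. Of the 3 erythroid markers tested, 1 was called higher at 2 weeks and 0 at 5 weeks. The 6 cholangiocyte markers summed to 332 to 541, 273 to 380 and 111 to 370 CPM, and at 5 weeks all 6 had a log2 change below 0 (median -0.77). Mesothelial markers (6 genes) summed to 11.7 to 30.1, 9.98 to 25.1 and 4.14 to 11.7 CPM, with a median log2 change of -1.23 at 5 weeks and Msln and Lrrn4 at 0 in some 5-week library. The 6 hepatocyte markers, which check the tissue, summed to 99220 to 112700, 109200 to 149400 and 109600 to 148200 CPM. For single genes rather than sums, 16.3% of all tested genes lay wholly below TAA at 2 weeks and 17.3% wholly above. At 5 weeks these shares were 13.4% and 11.6%. The part of these cell markers in the levels of the 10 genes was not tested.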

How the data were processed

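Liver mRNA of 9 samples in 3 groups was analysed. The authors deposited estimated counts of reads for genes and for transcripts, as the headers name them: whole numbers for 24532 genes and 36780 transcripts. FPKM values deposited by the authors served for levels per length and for an alternative. FastQC 0.11.7, HISAT2 2.1.0, StringTie 1.3.4d and mm10 are named per the submitters' processing notes; the step that made read counts from them and the use of strand in counting are not given in the sources used here. Counts from such a step are spread over transcripts by estimation, which matters most for transcript shares.

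Genes were kept by filterByExpr (minimum count 10, minimum total 15), scaled by TMM and tested in a single fit of the 9 libraries with 6 residual degrees of freedom by the quasi-likelihood test of edgeR 4.0.16 (R 4.3.3). P-values of the 14731 genes were adjusted by Benjamini-Hochberg, and a gene was called below 0.05. SE is the size of the log2 change divided by the square root of F. The common biological coefficient of variation was 24.9%. On simulated counts with known changes, the 2-week, 5-week and 5-against-2-week fits recovered 41%, 43% and 44% of 2-fold and 93%, 93% and 95% of 4-fold changes.

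The members and gene lists were chosen with earlier results of these data known; 1 gene of the TGF beta list is not reported here and is left out of the list's counts. Besides the members, Cygb and Acta2, the genes named are up to 4 called genes of each list per comparison with TAA with the largest change and at least 1 CPM (the lowest p where none was called), and the 8 genes of highest likeness on log2(CPM + 0.1). Transcripts are described at a mean share of 5% or more. Alternatives were DESeq2 1.42.0, library totals, upper-quartile scaling, no filter, limma 3.58.1 on log2(FPKM + 1), removal of the trend over transcript length (lowess span 0.3), the compared groups alone, and fits without libraries. Promoters came from RefSeq and exons from GENCODE.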

Additional observations from a re-analysis of the deposited data

How the results depend on the processing

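Of the 9 members other than Fn1, each stayed below 0 against TAA in every setting tried. Among member changes 475 values moved by less than the replicate spread and 34 by more. Counts of called genes depended strongly on the settings; they are given as all genes, members and list genes. After 2 weeks, 488, 6 and 6 became 1713, 8 and 20 with DESeq2, 1722, 9 and 29 with library totals, 2271, 8 and 32 with limma on FPKM, 1023, 7 and 14 with only the groups compared, and 12, 0 and 0 without replicates 17, 18 and 23. After 5 weeks, 190, 5 and 4 became 1188, 8 and 19 with DESeq2, 504, 8 and 12 with library totals, 77, 2 and 3 with upper-quartile scaling, 105, 3 and 3 with no filter, 1190, 7 and 19 with limma on FPKM, 1, 0 and 0 with only the groups compared, and 7, 0 and 0 without replicates 17, 18 and 23; removing the length trend gave 590 genes. Between 5 and 2 weeks, 3, 0 and 0 became 788, 2 and 3 with DESeq2, and the genes became 6 with the length trend removed, 5 without replicates 17, 18 and 23, and 0 with only the groups compared. Leaving out 1 replicate gave 1 to 1095 genes, 0 to 7 members and 0 to 15 list genes after 2 weeks, 0 to 240, 0 to 2 and 0 to 2 after 5 weeks, and 1 to 1889, 0 to 1 and 0 to 8 between 5 and 2 weeks. The cause of these shifts was not tested. Among the named list genes, signs turned for Hapln4 at 2 weeks (-0.26 with library totals, -0.21 with limma on FPKM). Between 5 and 2 weeks they turned for Lamc1 (-0.071, length trend removed) and Hmmr (-0.059, without replicates 17, 18 and 23). Members turned sign too, such as Fn1 after 5 weeks (-0.0048 with library totals, -0.02 with limma on FPKM). Between 5 and 2 weeks Thbs1 went from 0.06 to -0.18 with the length trend removed. In that comparison 5 of the 10 members were below 0, and 1 was without replicates 17, 18 and 23. Transcript share differences turned sign for Fn1 variant 5 (0.764, 0.876 and 0.172 points without replicates 12, 17 and 27, in a range from -1.44), Fn1 variant 4 (-0.0432 without replicate 13, in a range up to 4.05) and Postn variant 2 (-2.67 without replicate 17, in a range up to 5.43). No paired analysis was possible because the groups share no replicate number.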
